A study of Rattus norvegicus with 10 samples.

Results

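The genes described here are those of oxygen sensing by the hypoxia-inducible factors (HIFs), with the HIF targets Vegfa and Bnip3, in the left ventricle of heat-exposed rats. They were a written list of 10 genes (Hif1a, Epas1, Hif3a, Arnt, Egln1, Egln2, Egln3, Vhl, Vegfa and Bnip3), and all 10 were measured among the 14324 genes that had a probe set with a single symbol. For Egln1 and Bnip3, which had more than 1 such probe set, the brightest was used. Expression arrays were hybridised with biotin-labelled RNA from Sabra rats, an albino strain, 1 array for each pool of 5 animals and 2 pools in each of 5 groups. Heat exposure began when the animals were 3 weeks old. AC2d rats spent 2 days at 34 °C and were 1 month old at sampling, and AC30 rats spent 30 days there and were 2 months old. DeAC rats had those 30 days of heat followed by 30 days at 24 °C. ReAC rats then had 2 more days at 34 °C, and both of these groups were 3 months old. The control group was untreated and 1 month old. Labelled age therefore matched in 2 pairs of groups compared here, AC2d with control and ReAC with DeAC, and in the others heat history and age cannot be told apart.

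HIFs are transcription factors made of an oxygen-regulated alpha subunit and a stable beta subunit. When oxygen is present, prolyl hydroxylases of the Egln (PHD) family hydroxylate the alpha subunit, the von Hippel-Lindau protein Vhl then binds it, and it is degraded by the proteasome. When oxygen is short the alpha subunit persists, and the dimer switches on genes for glucose transport, glycolysis, vessel growth and red cell production. Since much of this control acts on protein stability, the RNA levels of the pathway components describe their supply and not HIF activity. For Vegfa, Bnip3 and the other HIF target genes the RNA level is that of a target. HIF activity itself was not measured.

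Values are log2 signals, so a difference of 1 is a doubling. Errors are moderated standard errors of the difference from the limma model, with n = 2 pools per group. A gene passed at a Benjamini-Hochberg adjusted p under 0.05 over all 14324 genes in that model. The model takes 1 spread per gene from all 10 arrays and moderates it with the spread of other genes (5 residual and 8.3 prior degrees of freedom). The labels describe the replicates as biological pools, so the spread between animals inside a pool is not seen. Array medians lay between 5.95 and 6.10. The markers of ventricular muscle had a mean log2 level between 12.35 and 12.48 on all 10 arrays. The 7 measured atrial markers had means of 11.07 and 11.13 in the AC2d pools, 11.51 and 11.41 in AC30, 7.28 and 7.29 in DeAC, 10.37 and 10.40 in ReAC, and 10.84 and 9.24 in control. The control pools thus stood apart from each other, with 57 genes more than 1 log2 unit apart, and each of the other groups had 1 such gene or 0.

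The oxygen sensor Egln3 was the member of the pathway with the most calls. It fell after 2 days of heat and was lowest after 30 days of heat. Its pools 30 days after the heat ended lay between the control pools, and it fell again in the second 2 days of heat, a call that rested on single arrays. Epas1 and Egln1 were also lowest in the AC30 pools, and both were higher in DeAC than in AC30. Hif1a was lower than control in both 3-month-old groups, in calls that turned on single arrays and on scaling. Vegfa passed in 0 of the 8 limma comparisons, with 4 at an unadjusted p under 0.05. In a test for any difference among the 5 groups (limma moderated F test), Hif1a, Epas1, Egln1, Egln3, Vegfa and Bnip3 passed, which is 6 of 10 genes against 22.2% of all genes. Hif3a, Arnt, Egln2 and Vhl did not. The 6 became 4 with values as deposited, 4 with array medians made equal and 2 without the mean-variance trend. Of all genes 2833, 2799 and 1962 then passed, in place of 3175. Without the 40% dimmest genes, 6 of the 9 listed genes left passed, and so did 3233 of all 8594 genes left.

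**Figure D1:**
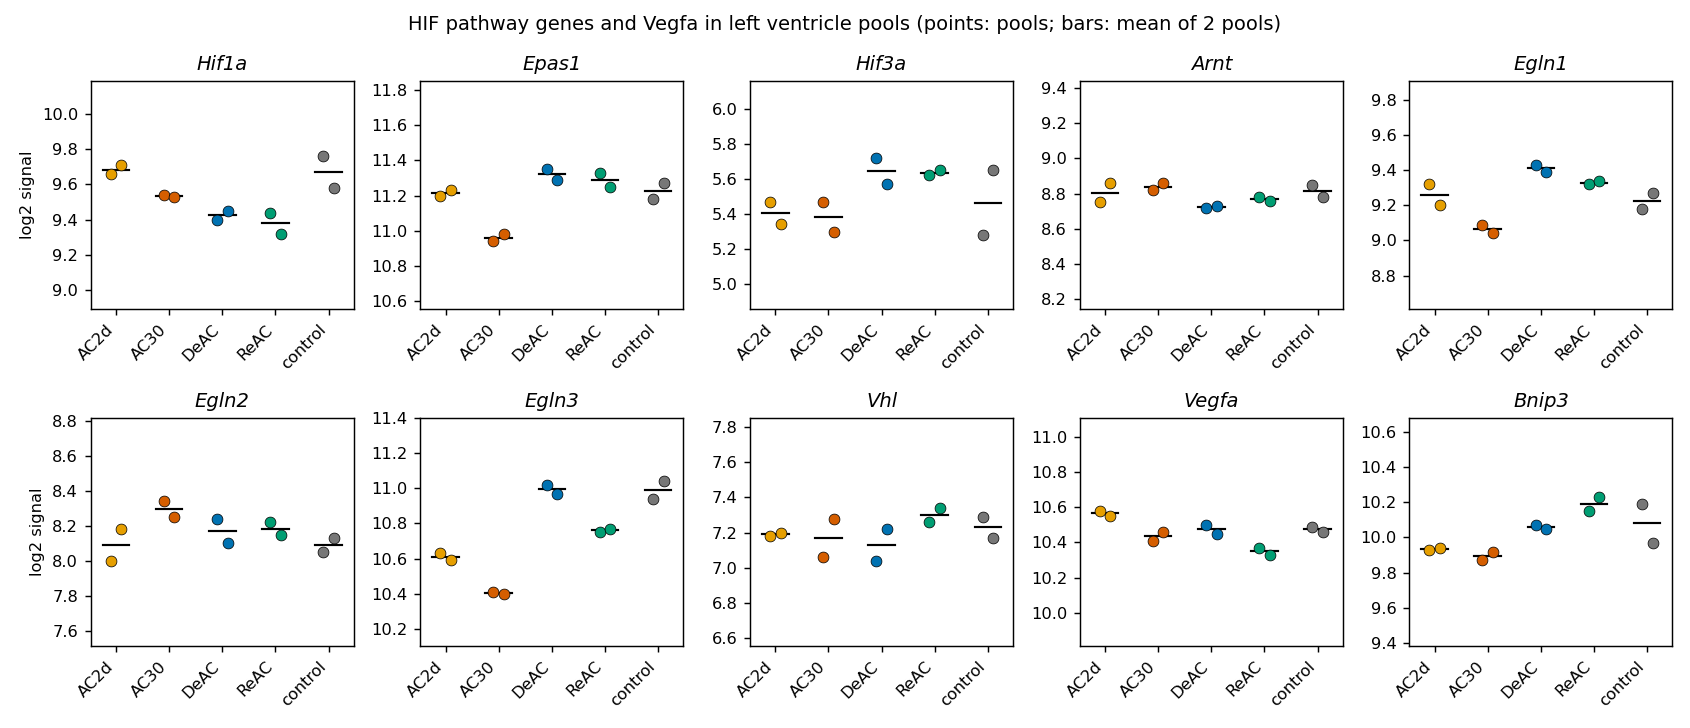
Log2 signal (vertical axis, each panel spanning 1.3 log2 units) of the 10 genes in the 5 groups, with a point for each pool and a bar at the mean of 2 pools. Egln3 has its lowest pools in AC30 (10.41 and 10.40), and the Vegfa pools all lie between 10.33 and 10.58.

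The count of the 10 genes that passed is given beside the share of all genes that did, as higher, lower and in either direction. In AC2d against control 1 of the 10 was lower, where 0.663% of all genes were higher and 1.86% lower (2.53% in all). In AC30 against control 2 were lower, where 3.57% of all genes were higher and 4.96% lower (8.53%). In DeAC against control 1 was lower (4.45%, 3.77% and 8.22%), and in ReAC against control 2 were lower (5.63%, 5.28% and 10.9%). In AC30 against AC2d 1 was lower (0.328%, 0.433% and 0.761%), and in ReAC against DeAC 1 was lower (1.7%, 2.21% and 3.91%). The count was largest in DeAC against AC30, with 3 higher and 0 lower, where 9.85% of all genes were higher and 7.45% lower (17.3%). These shares include dim genes. Without the 40% dimmest, 1491 of 8594 genes were higher in DeAC against AC30 and 1068 lower. The response to renewed heat (ReAC minus DeAC) was also set against that to initial heat (AC2d minus control). For the difference of these responses limma called 0 of the 10, where 0.223% of all genes were higher and 0.0768% lower (0.3%). Before adjustment, the limma p was below 0.05 for 3 of the 10 and for 8.22% of all genes. The split of all calls depended on scaling in 3 comparisons. It was 1411 higher and 1067 lower in DeAC against AC30, or 1909 and 456 when array medians were made equal. In DeAC against control it was 638 and 540, or 985 and 217, and in ReAC against control 807 and 757, or 997 and 339.

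**Figure D2:**
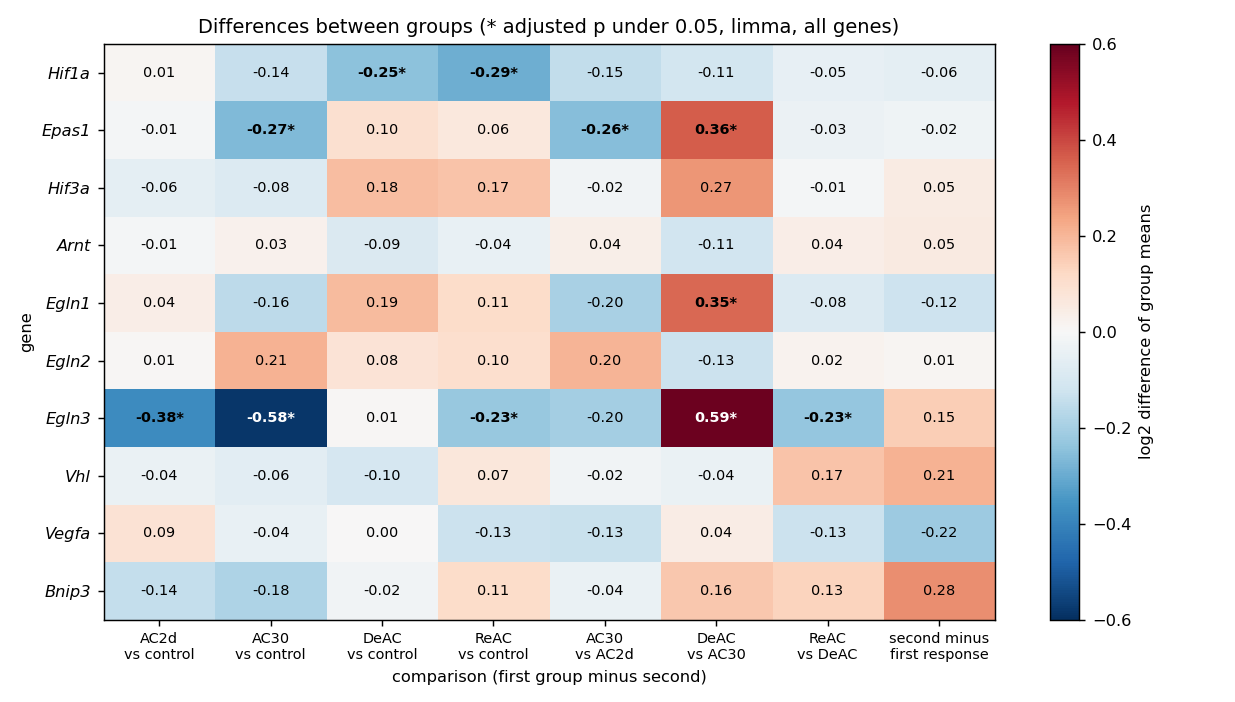
Log2 difference of group means (colour and number) for the 10 genes (rows) in the 8 comparisons (columns, first group minus second), with an asterisk where the adjusted p was under 0.05. The Egln3 row has 5 asterisks, its values running from -0.58 in AC30 against control to 0.59 in DeAC against AC30.

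Among the alpha subunits, Hif1a encodes HIF-1 alpha, which is made in most cells. Its log2 signal was 9.66 and 9.71 in the AC2d pools, 9.54 and 9.53 in AC30, 9.40 and 9.45 in DeAC, 9.44 and 9.32 in ReAC, and 9.76 and 9.58 in control. The pools of AC30, DeAC and ReAC all lay below both control pools. Hif1a fell in ReAC against control (log2 difference -0.295 ± 0.064, adjusted p = 0.00926) and in DeAC against control (-0.247 ± 0.064, adjusted p = 0.0311). Both calls turned on single arrays and on scaling, and held in 4 and 3 of 8 other settings. Without control replicate 1 the differences were -0.21 (adjusted p = 0.0624) in ReAC and -0.16 (adjusted p = 0.196) in DeAC, and with array medians made equal they were -0.18 (adjusted p = 0.227) and -0.11 (adjusted p = 0.495). The ReAC call also ended without ReAC replicate 2 (adjusted p = 0.117), and the DeAC call without either AC2d or either DeAC pool. In AC30 the difference from control was -0.14 (adjusted p = 0.248), and in AC2d it was 0.01.

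Epas1 encodes HIF-2 alpha, known for its expression in endothelial cells and for its role in the erythropoietin response. It had 11.20 and 11.23 in the AC2d pools, 10.94 and 10.98 in AC30, 11.35 and 11.29 in DeAC, 11.33 and 11.25 in ReAC, and 11.18 and 11.27 in control. Only the AC30 pools stood below 11, and they did not overlap with any other group. Epas1 fell in AC30 against control (log2 difference -0.266 ± 0.047, adjusted p = 0.00336) and rose by 0.36 ± 0.05 in DeAC against AC30 (adjusted p = 0.000138). Both calls held with each array left out in turn, at differences from -0.308 to -0.225 and from 0.33 to 0.394. The first of them was lost without the mean-variance trend (adjusted p = 0.0648) and with the 2 groups fitted alone (adjusted p = 0.0573). The difference of AC30 from AC2d was -0.26 ± 0.05 (adjusted p = 0.0279), a call that ended without either AC2d pool (adjusted p = 0.247 and 0.274), AC30 replicate 1 (0.219) or either ReAC pool (0.0526 and 0.0525). Of 6 measured endothelial markers, 4 were lower in AC30 than in control (4.96% of all genes). The mean log2 level of the 6 markers was 8.44 and 8.61 in the AC30 pools, against 8.79 and 8.92 in the control pools. In DeAC against AC30 2 of these markers were higher and 1 was lower (9.85% and 7.45% of all genes). The means in the DeAC pools were 8.63 and 8.61. The 4 became 1 without control replicate 2 and 2 without AC30 replicate 1, and the 2 became 0 without AC30 replicate 1 and 1 without either DeAC pool. In DeAC and in ReAC against control 3 endothelial markers each were lower (3.77% and 5.28% of all genes). In the other settings these counts lay between 0 and 3 and between 0 and 4. The Epas1 differences in these comparisons were 0.096 and 0.063. The part of endothelial cells in the Epas1 differences was not tested, and in whole ventricle RNA fewer cells of a type and less RNA per cell cannot be told apart.

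Hif3a encodes HIF-3 alpha, some forms of which restrain the other HIFs. Its signals lay below the array medians, at 5.47 and 5.34 in AC2d, 5.47 and 5.30 in AC30, 5.72 and 5.57 in DeAC, 5.62 and 5.65 in ReAC, and 5.28 and 5.65 in control. The control pools covered most of that range. Its differences ran from -0.08 (AC30 against control) to 0.265 ± 0.134 (DeAC against AC30, adjusted p = 0.2175), and none of the 8 passed, at an unadjusted p under 0.05 either. Arnt encodes HIF-1 beta, the partner that all 3 alpha subunits share. It stayed between 8.72 and 8.86 on all arrays. Its difference farthest from 0 was -0.11 ± 0.06 in DeAC against AC30 (adjusted p = 0.232), with a 95% interval from -0.24 to 0.01.

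Egln3 encodes PHD3, a prolyl hydroxylase whose gene is itself a HIF target. Its log2 signal was 10.63 and 10.59 in the AC2d pools, 10.41 and 10.40 in AC30, 11.02 and 10.97 in DeAC, 10.75 and 10.77 in ReAC, and 10.94 and 11.04 in control. The pools of AC2d, AC30 and ReAC did not overlap with one another or with the rest, while the DeAC pools lay between the control pools. After 2 days of heat Egln3 was at 0.77 of its control level (log2 difference -0.38 ± 0.05, adjusted p = 0.000778), and after 30 days at 0.668 of it (-0.58 ± 0.05, adjusted p = 1.27e-05). In DeAC against control the difference was 0.01 ± 0.05 (adjusted p = 0.967), with a 95% interval from -0.10 to 0.11. In DeAC against AC30 it rose 1.5-fold (0.59 ± 0.05, adjusted p = 4.2e-06). The calls in AC2d and AC30 against control and in DeAC against AC30 held in all fits with an array left out, and their differences then lay from -0.43 to -0.33, from -0.63 to -0.53 and from 0.56 to 0.61.

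In ReAC against DeAC, which matched in labelled age, the difference was -0.23 ± 0.05 (adjusted p = 0.016), against -0.38 ± 0.05 in AC2d against control. The difference between these responses was 0.15 ± 0.07 and did not pass (adjusted p = 0.603). The ReAC against DeAC call ended without either DeAC pool or either ReAC pool (adjusted p between 0.0591 and 0.142), with values as deposited (adjusted p = 0.0543) and with array medians made equal (0.146). Against control, the ReAC difference was -0.226 ± 0.047 (adjusted p = 0.00741). This call ended without control replicate 2 (adjusted p = 0.0526), ReAC replicate 1 (0.07) or ReAC replicate 2 (0.0544), and with array medians made equal (difference -0.12, adjusted p = 0.31). In AC30 against AC2d it was -0.205 ± 0.047 (adjusted p = 0.0707), which became a call without either control pool (adjusted p = 0.018 and 0.0181), with the 2 groups fitted alone (0.0418) and without the 40% dimmest genes (0.0485). Egln3 was the only 1 of the 10 genes in the authors' deposited table of fold changes. There it had -1.28 in AC2d, -1.50 in AC30, 1.03 in DeAC and -1.13 in ReAC, as signed fold changes against control in which a negative sign marks a lower level.

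Egln1 encodes PHD2, the main prolyl hydroxylase of HIF-1 alpha in most tissues. It had 9.32 and 9.20 in the AC2d pools, 9.09 and 9.04 in AC30, 9.43 and 9.39 in DeAC, 9.32 and 9.34 in ReAC, and 9.18 and 9.27 in control. The AC30 pools were the lowest and the DeAC pools the highest. Egln1 rose by 0.35 ± 0.06 in DeAC against AC30 (adjusted p = 0.000998), and by 0.32 to 0.37 with single arrays left out, each of which kept the call. Its difference in DeAC against control was 0.19 ± 0.06 (adjusted p = 0.0646) and passed without control replicate 2 (0.235, adjusted p = 0.0483), with values as deposited (0.24, adjusted p = 0.0279) and with array medians made equal (0.32, adjusted p = 0.0237). A second, dimmer probe set named Egln1 had 8.62 and 8.46 in AC2d, 8.20 and 8.41 in AC30, 8.98 and 9.10 in DeAC, 9.05 and 8.82 in ReAC, and 8.77 and 8.73 in control. In the test of every probe set it gave 0.74 ± 0.10 in DeAC against AC30 (adjusted p = 0.000458) and -0.45 ± 0.10 in AC30 against control (adjusted p = 0.0202), where the brighter one had -0.16 (adjusted p = 0.14 in the main test). In AC2d against control the dimmer probe set had -0.21 and the brighter one 0.04. In the second response minus the first they had 0.10 and -0.12, and none of these differences passed. The probe sets thus differed in size, in the AC30 call and in the sign of these small differences. The sources used here do not give the transcripts that each one covers. Egln2 encodes PHD1. It had 8.0 and 8.18 in AC2d, 8.34 and 8.25 in AC30, 8.24 and 8.10 in DeAC, 8.22 and 8.15 in ReAC, and 8.05 and 8.13 in control. Its difference in AC30 against control was 0.21 ± 0.08 (adjusted p = 0.146), of opposite sign to those of Egln1 and Egln3, and it passed in 0 of the 8 comparisons of the limma test, with 2 at an unadjusted p under 0.05.

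Vhl, the recognition subunit of the ubiquitin ligase that marks hydroxylated HIF for degradation, lay between 7.04 and 7.34. Pools of 1 group differed by up to 0.22. Its difference farthest from 0 among pairs of groups was 0.17 ± 0.10 in ReAC against DeAC (adjusted p = 0.441), and its 95% interval ran from -0.04 to 0.38.

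Vegfa encodes the vascular endothelial growth factor through which HIF drives vessel growth. It had 10.58 and 10.55 in the AC2d pools, 10.41 and 10.46 in AC30, 10.50 and 10.45 in DeAC, 10.37 and 10.33 in ReAC, and 10.49 and 10.46 in control. The AC2d pools were the highest and the ReAC pools the lowest, and neither overlapped with another group. The AC2d difference from control was 0.09 ± 0.05 (adjusted p = 0.444), with a 95% interval from -0.01 to 0.19. In ReAC against DeAC it was -0.13 ± 0.05 (adjusted p = 0.159), from -0.23 to -0.03. The second response minus the first was -0.22 ± 0.07 (adjusted p = 0.277). Vegfa passed the test for any difference among the 5 groups (moderated F test, adjusted p = 0.0303), although no single comparison did. Its adjusted p was the highest of the 6 genes that passed that test.

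Bnip3 encodes a mitochondrial protein of the Bcl2 family that promotes mitophagy and is a HIF-1 target in many cells. It had 9.93 and 9.94 in the AC2d pools, 9.87 and 9.92 in AC30, 10.07 and 10.05 in DeAC, 10.15 and 10.23 in ReAC, and 10.19 and 9.97 in control. Control replicate 1 was as high as the ReAC pools, and control replicate 2 was close to the AC2d pools. No comparison passed in the main test. The differences were -0.145 ± 0.064 in AC2d against control (adjusted p = 0.331), -0.18 ± 0.06 in AC30 against control (adjusted p = 0.103) and 0.16 ± 0.06 in DeAC against AC30 (adjusted p = 0.11). Without control replicate 2 the first became -0.25 (adjusted p = 0.0373) and the second -0.29 (adjusted p = 0.00986). ReAC against control, 0.11 with all arrays (adjusted p = 0.32), was 0.217 without control replicate 1 (adjusted p = 0.0294). Without control replicate 2 the second response minus the first, 0.28 ± 0.09 with all arrays (adjusted p = 0.351), was 0.38 (adjusted p = 0.0178). DeAC against AC30 kept its value of 0.16 and passed without either control pool (adjusted p = 0.0296 and 0.0292), and with array medians made equal it was 0.29 (adjusted p = 0.0304). The second Bnip3 probe set gave -0.17 ± 0.06 in AC2d against control, -0.17 ± 0.06 in AC30 against control and 0.19 ± 0.06 in DeAC against AC30, close to the first.

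**Figure D3:**
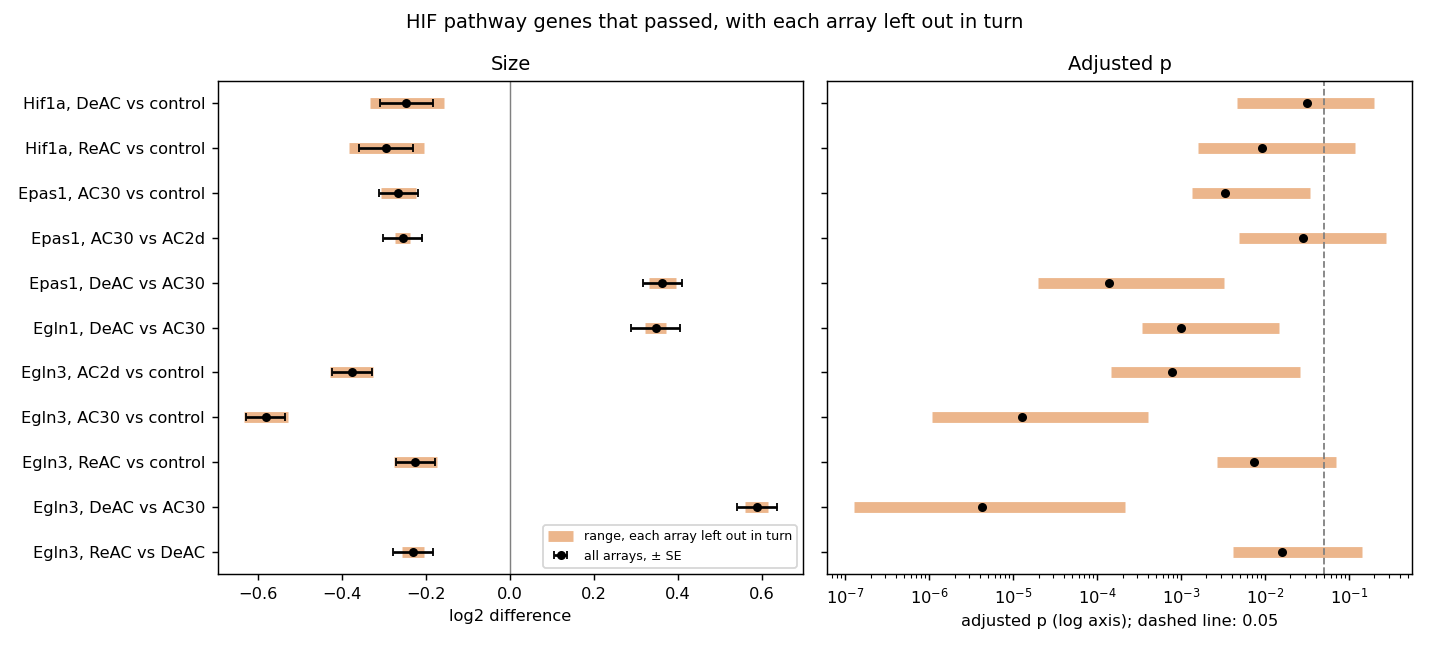
The 11 calls made among the 10 genes, with the log2 difference ± SE (left) and the adjusted p on a log axis (right) from all arrays as points, and the range over the 10 fits that left out 1 array as bands. The bands of Egln3 in AC2d and AC30 against control and in DeAC against AC30, of Epas1 in AC30 against control and DeAC against AC30, and of Egln1 in DeAC against AC30 stay left of 0.05.

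The promoters of the 3 genes that were higher in DeAC than in AC30 are shown with that of Bnip3, because they hold the core of the HIF binding site in different numbers. Each runs from 250 bases before to 50 bases after the RefSeq gene start, in the assembly GRCr8, which serves here for sequence and not for the arrays. Capitals mark ACGTG or GCGTG, or CACGT or CACGC where the match lies on the other strand.
Epas1 (chr6:13624680-13624979, minus strand): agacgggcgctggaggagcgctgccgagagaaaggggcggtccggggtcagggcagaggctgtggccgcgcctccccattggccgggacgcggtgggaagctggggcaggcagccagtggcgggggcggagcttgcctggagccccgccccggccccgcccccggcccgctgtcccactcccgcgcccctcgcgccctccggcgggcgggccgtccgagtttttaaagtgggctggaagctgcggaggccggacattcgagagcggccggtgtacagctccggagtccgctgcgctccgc
Egln1 (chr19:69804632-69804931, minus strand): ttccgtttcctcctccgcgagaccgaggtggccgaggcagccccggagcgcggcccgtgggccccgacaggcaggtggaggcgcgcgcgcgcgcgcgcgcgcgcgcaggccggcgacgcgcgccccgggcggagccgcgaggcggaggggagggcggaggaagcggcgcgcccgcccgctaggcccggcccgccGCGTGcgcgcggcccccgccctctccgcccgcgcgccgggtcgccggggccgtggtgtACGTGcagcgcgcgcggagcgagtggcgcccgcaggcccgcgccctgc
Egln3 (chr6:77410966-77411265, minus strand): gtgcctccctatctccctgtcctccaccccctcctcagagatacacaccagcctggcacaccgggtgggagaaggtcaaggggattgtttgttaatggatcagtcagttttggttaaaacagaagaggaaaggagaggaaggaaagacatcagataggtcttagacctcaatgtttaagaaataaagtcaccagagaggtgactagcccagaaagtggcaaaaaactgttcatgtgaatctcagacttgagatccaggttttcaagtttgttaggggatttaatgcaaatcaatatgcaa
Bnip3 (chr1:203154913-203155212, minus strand): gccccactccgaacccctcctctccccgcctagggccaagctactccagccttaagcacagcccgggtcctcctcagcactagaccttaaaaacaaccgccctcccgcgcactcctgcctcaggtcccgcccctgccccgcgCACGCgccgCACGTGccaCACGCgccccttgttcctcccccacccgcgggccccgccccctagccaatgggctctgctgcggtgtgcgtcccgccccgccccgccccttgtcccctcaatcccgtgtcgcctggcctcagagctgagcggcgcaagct
The Egln1 window held 1 ACGTG, 3 bases after the start, and 1 GCGTG. The Bnip3 window held 2 of each, the 2 ACGTG matches being the same CACGTG read on both strands. Neither motif was found in the Epas1 or Egln3 window. Of the 10 genes, 5 had a match in at least 1 window (Hif1a, Hif3a, Arnt, Egln1 and Bnip3). Counted by window, as the shares below are, 5 of their 12 windows had a match. One or the other motif was present in 41.6% of all 33469 windows of this length, and in 52% of the 12364 windows of genes measured here. A match is a description of the letters and no evidence of binding.

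The genes most like each of these in pattern were sought among the genes that passed the test for any difference, by Pearson correlation over the 10 arrays. For Egln3 they were Dlat (r = 0.987), a subunit of pyruvate dehydrogenase, Ndufs1 (0.974), a subunit of respiratory complex I, and Alkbh3 (0.97), a DNA and RNA demethylase. Dlat had 11.09 and 11.02 in the AC2d pools, 10.92 and 10.96 in AC30, 11.37 and 11.39 in DeAC, 11.14 and 11.22 in ReAC, and 11.32 and 11.39 in control. For Epas1 they were the acyl-CoA dehydrogenase Acadl (0.958), the calcineurin regulator Rcan1 (0.956) and Sdhb (0.955), a subunit of complex II. For Egln1 they were Dhrs4 (0.956), Cops7a (0.952) and Hsdl2 (0.942). For Hif1a they were Atf7 (0.954), Rbm25 (0.945) and Sparc (0.94), and the values were lower for Vegfa (Olr1433 at 0.909) and Bnip3 (Rab30 at 0.917). With 3169 candidates and points that share groups, high values are common, and these are descriptions. Among the 10 genes themselves, Epas1 and Egln1 had r = 0.90, Epas1 and Egln3 had 0.80, and Egln1 and Arnt had -0.91 over the same arrays.

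Of 16 measured partners and regulators, 1 was higher in AC2d than in control, 3 in AC30, 1 in DeAC and 2 in ReAC, with 0 lower in each (limma), where 0.663%, 3.57%, 4.45% and 5.63% of all genes were higher. In DeAC against AC30, 2 were higher and 3 lower (9.85% and 7.45% of all genes). Most of these counts rested on single arrays. In AC2d it was 0 without control replicate 2 or either AC2d pool. In AC30 it was 1 without either control or either AC2d pool and 0 without AC30 replicate 1. In DeAC against control it was 2 without either AC30 pool. In ReAC it was 1 without any 1 of the control, AC2d, DeAC or ReAC pools. The 3 lower in DeAC against AC30 became 1 without either AC2d pool, AC30 replicate 1 or DeAC replicate 2, and 0 with array medians made equal. Cited2, which competes with HIF for the coactivators Ep300 and Crebbp, had 9.16 and 9.13 in the AC2d pools, 8.99 and 9.07 in AC30, 9.54 and 9.54 in DeAC, 9.87 and 9.76 in ReAC, and 9.27 and 9.07 in control. It rose by 0.37 ± 0.07 in DeAC (adjusted p = 0.00463) and by 0.64 ± 0.07 in ReAC (adjusted p = 4.3e-05) against control, and both calls held with single arrays left out. Of the Vhl ligase, Cul2, its scaffold, was higher in DeAC than in AC30 (0.45 ± 0.09, adjusted p = 0.00344), while the adaptor Eloc was lower (-0.295 ± 0.055, adjusted p = 0.00192). Hif1an, the asparagine hydroxylase that blocks HIF transactivation, did not pass in any of the 8 limma comparisons, its values running from 9.18 to 9.42.

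Some HIF target genes of glucose use and mitochondria were lower in the heat than in control, and more of them were higher in DeAC than in AC30. Of 23 measured, 4 were lower in AC2d against control (1.86% of all genes), 6 in AC30 against control (4.96%) and 5 in ReAC against DeAC (2.21%), with 0 higher in these 3 comparisons. In DeAC against control 3 were higher and 1 lower (4.45% and 3.77% of all genes), and in ReAC against control 2 were higher and 5 lower (5.63% and 5.28%), the last count being 1 without ReAC replicate 1 and 3 without ReAC replicate 2. In DeAC against AC30, 11 were higher and 0 lower (9.85% of all genes higher), and the count lay between 8 and 11 with single arrays left out and between 7 and 14 in the other settings. The median difference of the list there was 0.20, against 0.006 for all genes. Without the 40% dimmest genes, 1491 of all 8594 genes left were higher in DeAC against AC30. Pdk1, the kinase that closes pyruvate dehydrogenase, had 10.85 and 10.86 in the AC2d pools, 10.66 and 10.72 in AC30, 11.28 and 11.25 in DeAC, 11.17 and 11.17 in ReAC, and 11 and 11.01 in control. It fell by 0.307 ± 0.042 in AC30 against control (adjusted p = 0.000639) and rose by 0.57 ± 0.04 in DeAC against AC30 (adjusted p = 2.15e-06). Fam162a, a mitochondrial protein gene induced by hypoxia, rose by 0.67 ± 0.06 in DeAC against AC30 (adjusted p = 7.04e-06). The glycogen synthase Gys1 rose by 0.51 ± 0.05 and the hexokinase Hk2 by 0.395 ± 0.05 there. The counts in the heat were less stable, with 2 to 5 lower in AC2d and 0 to 8 in ReAC against DeAC with single arrays left out. In ReAC against DeAC the count was 0 without DeAC replicate 2 or ReAC replicate 1, 1 without ReAC replicate 2 and 3 without DeAC replicate 1, and in AC2d it was 2 without either AC2d pool. Without the mean-variance trend both counts were 0.

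**Figure D4:**
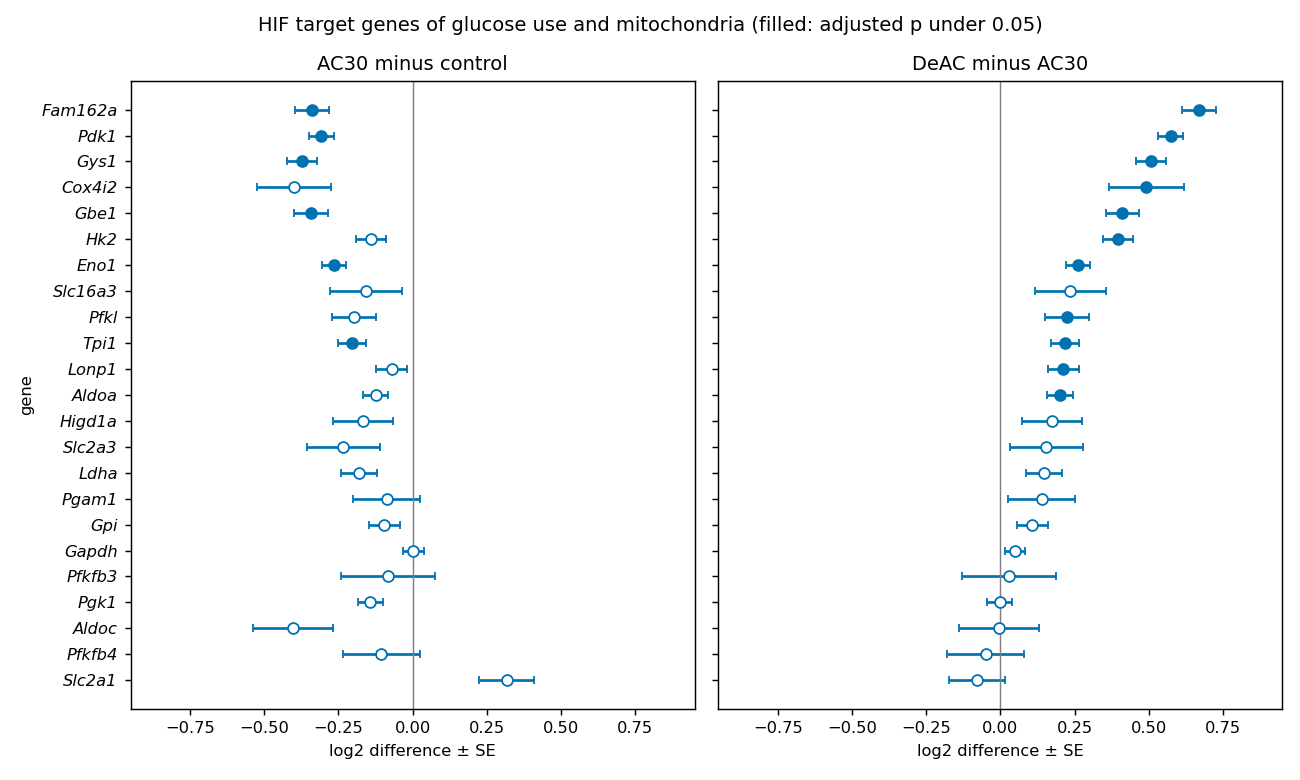
Log2 difference ± SE of the 23 measured HIF target genes of glucose use and mitochondria in AC30 against control (left) and DeAC against AC30 (right), filled where the adjusted p was under 0.05. The panels share the AC30 pools, so an error in those pools moves them in opposite directions. On the right 11 genes are filled, all above 0.

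Slc2a1, the insulin-independent glucose transporter GLUT1, had 8.04 and 8.04 in AC2d, 8.28 and 8.15 in AC30, 8.16 and 8.11 in DeAC, 8.29 and 8.49 in ReAC, and 7.76 and 8.03 in control. It rose by 0.49 ± 0.09 in ReAC against control (adjusted p = 0.00373, but 0.068 without ReAC replicate 2). Ldha, the lactate dehydrogenase subunit, passed in ReAC against control (-0.236 ± 0.061, adjusted p = 0.0238), and not without control replicate 2 or either ReAC pool (adjusted p up to 0.148). Its difference in AC2d against control was -0.241 ± 0.061 (adjusted p = 0.055) and passed in 6 of 8 other settings, and without control replicate 1 or either AC30 pool. In AC30 against control it was -0.181 ± 0.061 (adjusted p = 0.0906), and passed without AC30 replicate 1. The other 31 measured HIF targets went both ways, with 5 higher and 6 lower in DeAC against AC30 (9.85% and 7.45% of all genes). The higher count was 3 without DeAC replicate 2 and the lower count 3 without DeAC replicate 1, and with array medians made equal 7 were higher and 2 lower. The iron importer Tfrc had 9.47 and 9.35 in the AC2d pools, 9.35 and 9.58 in AC30, 9.93 and 9.96 in DeAC, 8.73 and 8.78 in ReAC, and 10.03 and 10.24 in control. It fell by 0.72 ± 0.08 in AC2d against control (adjusted p = 0.000405) and by 1.19 ± 0.08 in ReAC against DeAC (adjusted p = 1.99e-05). Ddit4, which restrains mTOR under hypoxia, fell by 0.51 ± 0.08 in AC30 against control (adjusted p = 0.00203) and rose by 0.80 ± 0.08 in DeAC against AC30 (adjusted p = 2.66e-05). The heme oxygenase Hmox1 rose by 0.75 ± 0.09 in ReAC against control (adjusted p = 0.000191).

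Beside Vegfa, 12 ligands and receptors of the VEGF and angiopoietin families were measured, and Kdr was not analysed here. In AC30 against control 2 rose and 4 fell (3.57% and 4.96% of all genes), and in ReAC against control 2 rose and 3 fell (5.63% and 5.28%). In AC30, 1 rose and 2 fell without control replicate 2 or without AC30 replicate 1, and 1 rose without AC30 replicate 2. In ReAC, 1 fell without control replicate 2, either AC2d pool or either ReAC pool, and 1 rose without ReAC replicate 1. The Tek ligand Angpt1 had 9.04 and 9.11 in the AC2d pools, 9.08 and 9.10 in AC30, 8.89 and 8.99 in DeAC, 9.29 and 9.37 in ReAC, and 8.59 and 8.59 in control. All pools with a heat history lay above both control pools. Angpt1 rose by 0.48 ± 0.06 in AC2d (adjusted p = 0.000723), 0.50 ± 0.06 in AC30, 0.35 ± 0.06 in DeAC and 0.74 ± 0.06 in ReAC (adjusted p = 3.92e-06) against control, and each call held with single arrays left out. The coreceptor Nrp2 fell by 0.53 ± 0.08 in AC30 (adjusted p = 0.00148) and by 0.55 ± 0.08 in ReAC (adjusted p = 0.000729) against control. The VEGF receptor Flt1 was higher in DeAC than in AC30 by 0.23 ± 0.05 (adjusted p = 0.00683, but 0.0538 without DeAC replicate 1), and its AC30 call against control (-0.19 ± 0.05, adjusted p = 0.0396) was kept in 1 of the 10 fits that left out an array.

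Of 17 mitophagy genes beside Bnip3, 5 were higher in DeAC and 6 in ReAC than in control, with 0 and 1 lower, where 4.45% and 5.63% of all genes were higher. The DeAC count was 3 without either AC2d, either DeAC or either ReAC pool, and 1 without the mean-variance trend. The ReAC count lay between 5 and 7 with single arrays left out, and its 1 lower gene was lost without ReAC replicate 2. Pink1, the kinase that marks damaged mitochondria, had 11.48 and 11.49 in the AC2d pools, 11.56 and 11.56 in AC30, 11.86 and 11.84 in DeAC, 11.95 and 11.93 in ReAC, and 11.36 and 11.41 in control. It rose by 0.46 ± 0.04 in DeAC (adjusted p = 2.07e-05) and 0.56 ± 0.04 in ReAC (adjusted p = 1.03e-06) against control. In DeAC against AC30, 7 of the 17 were higher and 1 lower (9.85% and 7.45% of all genes), with 5 to 7 higher in the other settings. In AC30 against control 2 were higher and 1 lower (3.57% and 4.96%). The autophagy-starting kinase Ulk1 rose by 0.42 ± 0.06 in DeAC against AC30 (adjusted p = 0.000268) and fell by 0.58 ± 0.06 in ReAC against DeAC (adjusted p = 0.000182). Ulk1 was also the 1 gene of the 17 called in the second response minus the first, as lower (0.0768% of all genes).

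Markers of other cell types moved in the same comparisons. In DeAC against AC30, where Epas1, Egln1 and Egln3 were higher, 9.85% of all genes were higher and 7.45% lower. There 6 of 7 atrial, 9 of 9 fibroblast and 3 of 7 fat cell markers were lower. So were 3 of 8 smooth muscle and pericyte and 2 of 4 mesothelial markers. Higher were 4 of 10 ventricular muscle and 2 of 9 macrophage markers. Of 5 red blood cell markers 1 was higher and 2 lower. In the other settings the fat cell count lay between 0 and 4 and the ventricular muscle count between 2 and 6. The mean log2 level of the fibroblast markers was 9.86 and 9.86 in the DeAC pools, against 10.47 and 10.38 in the AC30 pools. In AC30 against control 6 of 7 atrial, 6 of 9 fibroblast and 2 of 4 mesothelial markers were higher (3.57% of all genes). Of 8 smooth muscle and pericyte markers 2 were higher and 1 lower. In the other settings the atrial count lay between 1 and 6 and the fibroblast count between 4 and 7. In ReAC against DeAC, where Egln3 fell, 5 of 7 atrial (median difference 3.245), 3 of 9 fibroblast and 3 of 9 macrophage markers were higher. Of all genes 1.7% were higher there. In the other settings these counts lay between 5 and 6, between 0 and 3 and between 0 and 5. Also higher in ReAC against DeAC were 2 of 4 mesothelial markers, and 1 of 5 red blood cell markers was lower (2.21% of all genes). In DeAC against control, where Hif1a fell, 5 atrial, 3 endothelial and 3 fibroblast markers were lower (3.77% of all genes). So were 2 red blood cell, 1 smooth muscle and pericyte, 1 fat cell and 1 mesothelial markers. Higher there were 4 macrophage and 1 fibroblast markers (4.45% of all genes). In the other settings the endothelial count lay between 0 and 3 and the macrophage count between 1 and 6. In ReAC against control, where Egln3 and Hif1a fell, all 9 macrophage markers were higher (5.63% of all genes), and all 9 were in the other settings. There 4 of 5 red blood cell and 3 of 6 endothelial markers were lower (5.28% of all genes). Of the fibroblast markers 2 were higher and 2 lower. In the other settings the red blood cell count lay between 3 and 4. The fat cell markers had a mean of 6.21 and 6.16 in AC30 and of 6.72 and 5.29 in the control pools. The part of these cell types in the differences of Egln3, Epas1, Egln1 and Hif1a was not tested. In AC2d against control, where Egln3 fell, 1 of 7 atrial and 4 of 9 fibroblast markers were higher (0.663% of all genes). Of 5 red blood cell markers 1 was lower there (1.86% of all genes). The atrial count was 6 without control replicate 1, 2 without control replicate 2 and 0 without any 1 of the other arrays, and the fibroblast count 2 without control replicate 2 or either AC2d pool. The 10 ventricular muscle markers had a median difference of -0.049. The ReAC pools had a mean macrophage marker level of 8.16 and 8.16, against 7.52 and 7.63 in the control pools.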

How the data were processed

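Left ventricle RNA of 10 pools had been measured on 1 expression array each, labelled with biotin by the Affymetrix protocol, per the labels' protocols. The authors' deposited value table held log2 signals of 27342 probe sets, log2 being judged from the values. Their summary and normalization steps are not given in the sources that were used here. The authors' deposited fold table held a signed fold score against control for 651 probe sets, within 0.04 log2 units of the value table. Gene symbols came from the platform annotation (15097 probe sets with 1 symbol, 323 with several, 11922 with none), and 15067 of the first were found in a RefSeq table (GRCr8) that updated the names.

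Values were quantile normalized, collapsed to the brightest probe set per gene (14324 genes) and fitted with limma 3.58.1 in R 4.3.3 (a mean per group, eBayes with a trend, 5 residual and 8.3 prior degrees of freedom). P-values were two-sided and adjusted by Benjamini and Hochberg over all genes of a comparison. All 10 genes entered the test, with no filter on low values. On arrays the number of arrays limits the precision. The 10 genes, the gene lists and the alternatives were chosen with earlier results of these data known. Other genes named were up to 4 per list and comparison with the smallest p among those that passed, a selection of which is described, and Hif1an, Slc2a1, Ldha, Pdk1 and Flt1, and the 3 nearest in pattern. The alternatives changed the scaling, the trend, the filter on dim genes, the rule for several probe sets, the groups fitted, the replicate block, the threshold and the arrays included. The fit was tested on simulated data. Promoters came from RefSeq, which held windows for all 10 genes. The replicate numbers did not pair the pools: of 10 correlations between groups of the difference between pools, 1 was above 0.1.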

Additional observations from a re-analysis of the deposited data

How the results depend on the processing

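Of 1432 differences of the 10 genes under the alternatives, 1321 kept their direction and their side of the threshold, 38 lost a call and 18 gained one. In the other 55 the sign changed, with a difference of at most 0.172 in the main test, and none of these was a call in either setting. The counts of the 10 genes that passed moved more. Without the trend they were 1 in AC30 against control, 0 in DeAC and ReAC against control, 0 in AC30 against AC2d and ReAC against DeAC, and 2 in the test for any difference. With values as deposited they were 1 in ReAC against control and 0 in AC30 against AC2d and ReAC against DeAC, and the 1 in DeAC against control was Egln1, higher, and no longer Hif1a. With array medians made equal they were 2 in DeAC against control (Epas1 and Egln1, higher) and 0 in ReAC against control, AC30 against AC2d and ReAC against DeAC. Without the 40% dimmest genes, a filter that left out Hif3a, they were 2 in DeAC against control and in AC30 against AC2d, and with the mean of probe sets 2 in DeAC against control. With every probe set tested the count was 0 in DeAC against control. With the groups of a comparison fitted alone it was 1 in AC30 against control, 0 in DeAC against control, 1 in ReAC against control and 2 in AC30 against AC2d. At an adjusted p under 0.01 it was 0 in DeAC against control, AC30 against AC2d and ReAC against DeAC, and under 0.1 it was 2 in DeAC against control and AC30 against AC2d. With single arrays left out it lay between 1 and 2 in AC2d, 2 and 3 in AC30, 0 and 2 in DeAC and 0 and 2 in ReAC against control, 0 and 2 in AC30 against AC2d, 3 and 4 in DeAC against AC30, 0 and 1 in ReAC against DeAC and in the second response minus the first, and 4 and 6 in the test for any difference. The replicate block changed none of these counts, with 1 of the 10 genes in AC2d against control as before and 386 of all genes in place of 362. Over all settings the count of all genes lay between 78 and 633 in AC2d, 278 and 1726 in AC30, 464 and 1891 in DeAC and 665 and 2219 in ReAC against control. It lay between 11 and 357 in AC30 against AC2d, 1445 and 3255 in DeAC against AC30, 98 and 1002 in ReAC against DeAC, and 6 and 198 in the second response minus the first. The causes of these changes were not tested. With 2 pools per group, small differences are below what the arrays can show, and Hif3a, below the array medians, is the least well measured.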
